A study of Mus musculus with 10 samples.

Results

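Py2T-LT mouse breast cancer cells given bone morphogenetic protein 2 (BMP2) together with a MEK inhibitor were compared with Py2T-LT control cells, both on day 7, across every gene with enough reads. The groups were taken from the sample labels, 2 libraries on each side and 4 of the 10 libraries in the series, and 13149 of the 18103 genes in the count table were tested. Py2T-LT stands for long-term Py2T cells, known as a mesenchymal derivative of a line from a mouse mammary tumour driven by polyoma middle T. The remaining libraries are Py2T-LT cells with the MEK inhibitor alone (2 libraries), which serve here as a second reference, and MTΔECad cells, a line lacking E-cadherin, as controls or with rosiglitazone (2 libraries each). The treatment protocol gives 200 ng/ml of human recombinant BMP2 and 40 µM of the MEK inhibitor PD98059 as the usual doses and DMSO medium for control cells. The labels give no dose for a sample and do not say whether rosiglitazone or TGF-β was in the Py2T-LT medium. The comparison rests on 1 cell line, and BMP2 without the inhibitor is not among the samples analysed here.

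BMP2 binds paired serine/threonine kinase receptors that phosphorylate SMAD1 and SMAD5, which enter the nucleus and switch on genes such as the Id family. MEK is the kinase that activates ERK, the last step of a growth factor cascade. In mesenchymal precursors BMP signalling is known to favour fat and bone fates, and active ERK can restrain the fat-cell receptor PPARγ.

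Library totals over the series ran from 14659987 to 17249199 counts, with 14776524 and 16726330 in the combination and 15594416 and 15679544 in the control. Levels are TMM-scaled CPM (a gene's reads relative to its library total, not divided by gene length) for replicates 1 and 2 in that order, and 3 counts in a library, taken as the detection floor, correspond to 0.164 to 0.209 CPM. The verbs rose and fell are used only of genes with a Benjamini-Hochberg adjusted p under 0.05 over all tested genes by edgeR (quasi-likelihood), and values after ± are standard errors of the log2 fold change. Control replicate 2 stood apart from control replicate 1: of 7415 genes at 20 CPM or more in the control, 134 were over 1.5 times higher in it and 1 in replicate 1, against 1 to 12 genes in either direction in the other groups. Of those 134 genes 19 fell, 2 rose and 113 were not called, and the named ones among them are given with and without that library. Because the RNA is from bulk cultures, fewer cells of a type and less RNA per cell cannot be told apart.

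The combination changed 5064 genes, 38.5% of those tested: 2511 rose (19.1%) and 2553 fell (19.4%). By more than 2-fold, 851 rose (6.47%) and 866 fell (6.59%), and the median log2 fold change over all tested genes was 0.00. Against the MEK inhibitor alone, 4908 genes differed (37.3%), with 2356 higher (17.9%) and 2552 lower (19.4%) in the combination, of which 668 (5.08%) and 891 (6.78%) by more than 2-fold. Of the 2511 rises over control, 1710 (68.1%) were also higher than with the inhibitor alone, 51 were lower and 750 were not called. Of the 2553 falls, 1811 (70.9%) were also lower than with the inhibitor alone, 28 were higher and 714 were not called. The inhibitor alone changed 2170 genes against the same controls (16.5%): 1181 rose (8.98%), 331 of them by more than 2-fold (2.52%), and 989 fell (7.52%), 176 by more than 2-fold (1.34%). These comparisons share libraries, so these counts are given as a description.

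The 12 largest rises and 12 largest falls, among genes of at least 5 CPM in 1 group, include genes that were close to or at 0 in one group (the plot of the largest changes). Tspan18, which encodes a tetraspanin membrane protein, had 0 counts in both controls and stood at 13.5 and 14.5 CPM in the combination, at least 75.2-fold over the floor (edgeR adjusted p = 2.07e-11). Rgs5, a regulator of G protein signalling used as a pericyte marker, went from 0 counts to 10.7 and 14.7 CPM, at least 68.1-fold. Sptlc3, a subunit of the enzyme that starts sphingolipid synthesis, went from 0 counts to 9.91 and 10.7 CPM, at least 55.3-fold, with a mean of 1.72 CPM after the inhibitor alone. Libraries that do not overlap between the groups were a condition for entry among these 12 rises and 12 falls. Slc6a4, the serotonin transporter, stood at 0 and 0.0625 CPM in controls and 7.9 and 10.5 CPM in the combination, a ratio of 299 (95% interval from the counts, 53.2 to 11850). Adora1, an adenosine receptor, had 0.0616 and 0.188 CPM in controls against 20.9 and 20.8 CPM, a ratio of 168 (interval 65.2 to 618). Krt15, Nlrp2, Disp3, Slc36a2, Kcnh5, Ccr7 and the lipid droplet gene Plin1 complete the rises.

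Inmt, which methylates indole amines, was the largest fall. It stood at 505 and 453 CPM in controls and 2.88 and 1.28 CPM in the combination, a log2 fold change of -7.88 ± 0.19 (edgeR adjusted p = 5.49e-13), with a mean of 175.5 CPM after the inhibitor alone. Dio2, which converts thyroxine to active thyroid hormone, was at 581 and 625 CPM in controls and 9.58 and 8.72 CPM in the combination, -6.04 ± 0.11, and at a mean of 65.8 CPM with the inhibitor alone. Rarb, a retinoic acid receptor, fell from 10.2 and 11.1 CPM to 0.134 and 0 CPM, a ratio of 0.00583 (counting interval 7.0e-04 to 0.0212). Every one of these 3 genes was lower in the combination than in either other Py2T-LT group. The noradrenaline transporter gene Slc6a2 fell from 209 and 212 to 7.5 and 7.21 CPM, -4.84 ± 0.09, whereas the inhibitor alone left a mean of 187 CPM. Cd300lb, Pi15, Spon1, Aspa, Cyp2f2, Lbp, Prss22 and the iron carrier Trf were the other large falls.

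**Figure D1:**
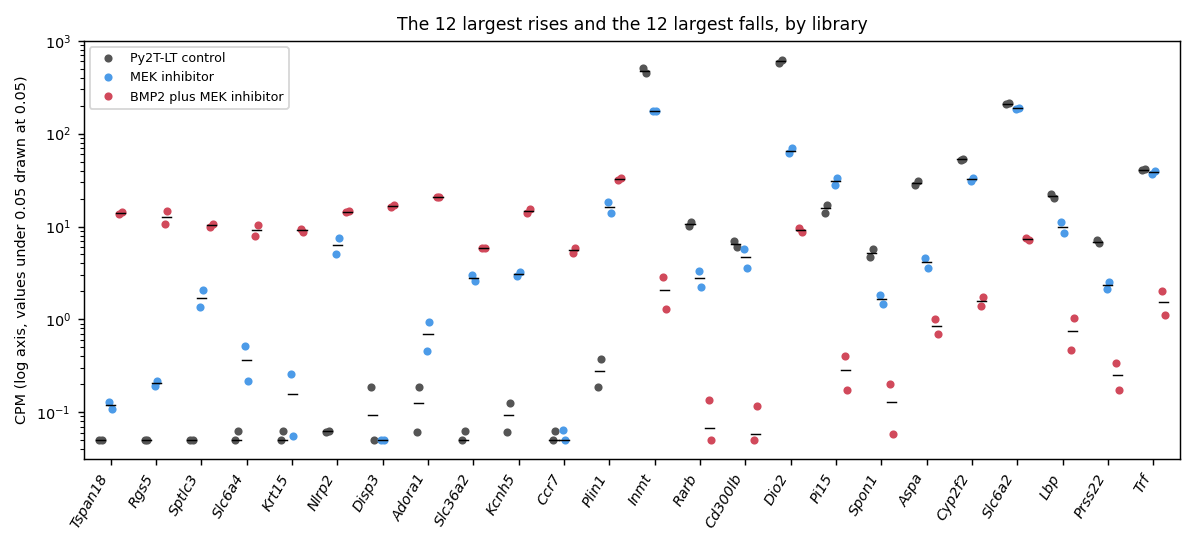
CPM (log axis, values under 0.05 drawn at 0.05) of the 12 largest rises, left, and the 12 largest falls, right, in the 2 libraries of the control, the MEK inhibitor and the combination, with a bar at each mean. Dio2 and Inmt lie between the other groups with the inhibitor alone, while Slc6a2 and Trf lie with the controls.

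The promoters of Rgs5 and Sptlc3, the largest rises with a promoter in the reference, and of Inmt and Rarb, the largest falls, are printed because these genes carried the largest changes. Each is a window of 300 bases that ends just after the RefSeq start (GRCm38.p6), 5′ to 3′ on the gene's strand: chr1:169655251-169655550 on the plus strand (Rgs5, NCBI Gene 19737), chr2:139493663-139493962 on the plus strand (Sptlc3, 228677), chr6:55174941-55175240 on the minus strand (Inmt, 21743) and chr14:16575427-16575726 on the minus strand (Rarb, 218772; this start lies inside the annotated gene, chr14:16430839-17082331). Capitals mark matches, on either strand, to a CCAAT box (Rgs5), an ISRE and a CHR element (Sptlc3), TATA boxes (Inmt), and a CHR element and a TEAD site (Rarb).
Rgs5: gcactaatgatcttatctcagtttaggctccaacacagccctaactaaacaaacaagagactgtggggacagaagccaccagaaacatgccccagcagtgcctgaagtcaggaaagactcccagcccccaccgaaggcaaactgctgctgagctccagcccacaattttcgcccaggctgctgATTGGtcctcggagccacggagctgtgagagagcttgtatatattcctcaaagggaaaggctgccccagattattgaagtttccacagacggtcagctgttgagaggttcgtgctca
Sptlc3: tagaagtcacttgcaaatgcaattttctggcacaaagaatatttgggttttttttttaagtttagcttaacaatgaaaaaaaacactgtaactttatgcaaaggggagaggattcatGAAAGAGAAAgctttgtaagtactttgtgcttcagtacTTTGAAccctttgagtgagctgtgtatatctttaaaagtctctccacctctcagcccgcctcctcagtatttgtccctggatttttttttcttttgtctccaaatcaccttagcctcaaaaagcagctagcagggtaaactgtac
Inmt: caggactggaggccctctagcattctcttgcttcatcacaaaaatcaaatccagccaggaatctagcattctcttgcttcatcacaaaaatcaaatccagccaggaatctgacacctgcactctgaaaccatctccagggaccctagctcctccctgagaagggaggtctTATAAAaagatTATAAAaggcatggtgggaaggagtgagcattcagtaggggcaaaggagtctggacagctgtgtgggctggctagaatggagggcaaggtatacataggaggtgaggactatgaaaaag
Rarb: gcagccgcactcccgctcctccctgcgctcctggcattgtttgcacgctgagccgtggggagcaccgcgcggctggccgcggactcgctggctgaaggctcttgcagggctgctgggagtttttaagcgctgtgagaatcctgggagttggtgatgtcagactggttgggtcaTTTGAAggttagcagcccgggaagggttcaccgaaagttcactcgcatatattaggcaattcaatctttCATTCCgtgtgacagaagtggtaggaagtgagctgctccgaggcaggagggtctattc
With the start base as 0, the TATAAA matches of Inmt begin at -80 and -69 and the CATTCC match (TEAD) of Rarb at -8. TATAAA was found in 8.8% of the promoters of 10358 tested genes, in 13.2% of 645 promoters of genes that rose over 2-fold and in 13.3% of 633 that fell over 2-fold. Over the 10358 promoters the TEAD motif was found in 14.5%, the ISRE and the CRE each in 3.6%, the AP-1 motif in 6.5%, the antioxidant response motif in 16.7% and the palindromic SMAD motif in 0.3%, and the PPAR element in 4 promoters. A match describes the letters only and is not evidence of a bound factor.

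Of the BMP target list most genes rose, and of the ERK target list 12 of 21 fell. All 20 genes of a list of BMP and SMAD1/5 targets were called, 19 up and 1 down, with a median log2 fold change of 2.02, and 19 were also higher than with the inhibitor alone. Members of this and the other lists were chosen with earlier results of these data known, so their counts are a description. Each such count stands beside the 19.1% of all tested genes that rose and the 19.4% that fell. Id1, an inhibitor of basic helix-loop-helix factors, was at 43.7 and 36.8 CPM in controls and 144 and 152 CPM in the combination. Its log2 fold change was 1.88 ± 0.12 (edgeR adjusted p = 1.58e-09). The homeobox gene Dlx3 was the 1 fall, -1.52, and was not called without control replicate 2 or without either combination library (it was named after its values were seen). Of 21 ERK feedback and target genes 12 fell and 1 rose (2 without control replicate 1), with a median of -0.52. With the inhibitor alone 3 of these 21 genes were above control and 3 below, and 11 were lower in the combination than with the inhibitor. The immediate early gene Egr1 fell from 20.5 and 28.9 to 2.68 and 3.78 CPM, -2.92 ± 0.25, and to a mean of 8.62 CPM with the inhibitor alone. Dusp6, a phosphatase that switches ERK off, did not pass the test at 175 and 141 against 184 and 173 CPM (edgeR adjusted p = 0.216; 0.0183 without control replicate 1).

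Genes of proliferation fell. Of 40 cell cycle genes 37 fell and none rose, with a median of -1.22, against 19.4% of all tested genes that fell. With the inhibitor alone 22 of the same 40 genes were above control and none below, and 39 were lower in the combination than with the inhibitor. Mcm5, a subunit of the replicative helicase, stood at 54 and 49.2 CPM in controls, a mean of 66.8 CPM with the inhibitor and 13.9 and 16.5 CPM in the combination, -1.76 ± 0.11 against control. Ccnd1, Cyclin D1, was among the 3 members not called, at 1747 and 1536 against 1567 and 1431 CPM. The others not called were E2f1 and E2f2. The Mcm5 promoter (NCBI Gene 17218, chr8:75109259-75109558, plus strand, GRCm38.p6 RefSeq) is printed as an example from the cell cycle list. Capitals mark, in order, an E2F match read on the opposite strand, a CRE and 3 CCAAT boxes.
Mcm5: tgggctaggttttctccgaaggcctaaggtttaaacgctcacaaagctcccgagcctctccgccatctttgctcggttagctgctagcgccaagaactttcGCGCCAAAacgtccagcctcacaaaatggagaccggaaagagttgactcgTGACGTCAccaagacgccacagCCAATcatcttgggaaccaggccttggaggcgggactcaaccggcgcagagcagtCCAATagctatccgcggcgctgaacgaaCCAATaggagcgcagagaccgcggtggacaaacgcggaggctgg
CCAAT, on either strand, stood in 24 of the 32 cell cycle promoters in the reference and in 43.4% of all 10358. TTTGAA, the CHR element, stood in 46.9% against 14.4%, and an E2F match (TTTGGCGC or TTTCCCGC) in 21.9% against 3.5%. The CRE stood in 2 of the 32 (6.2%) against 3.6%. GGCGCC, the GC-rich SMAD element, stood in 6 of 12 BMP target promoters, in 28.2% of promoters of genes that rose over 2-fold and in 18.2% of those that fell over 2-fold, against 24.7% of all.

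**Figure D2:**
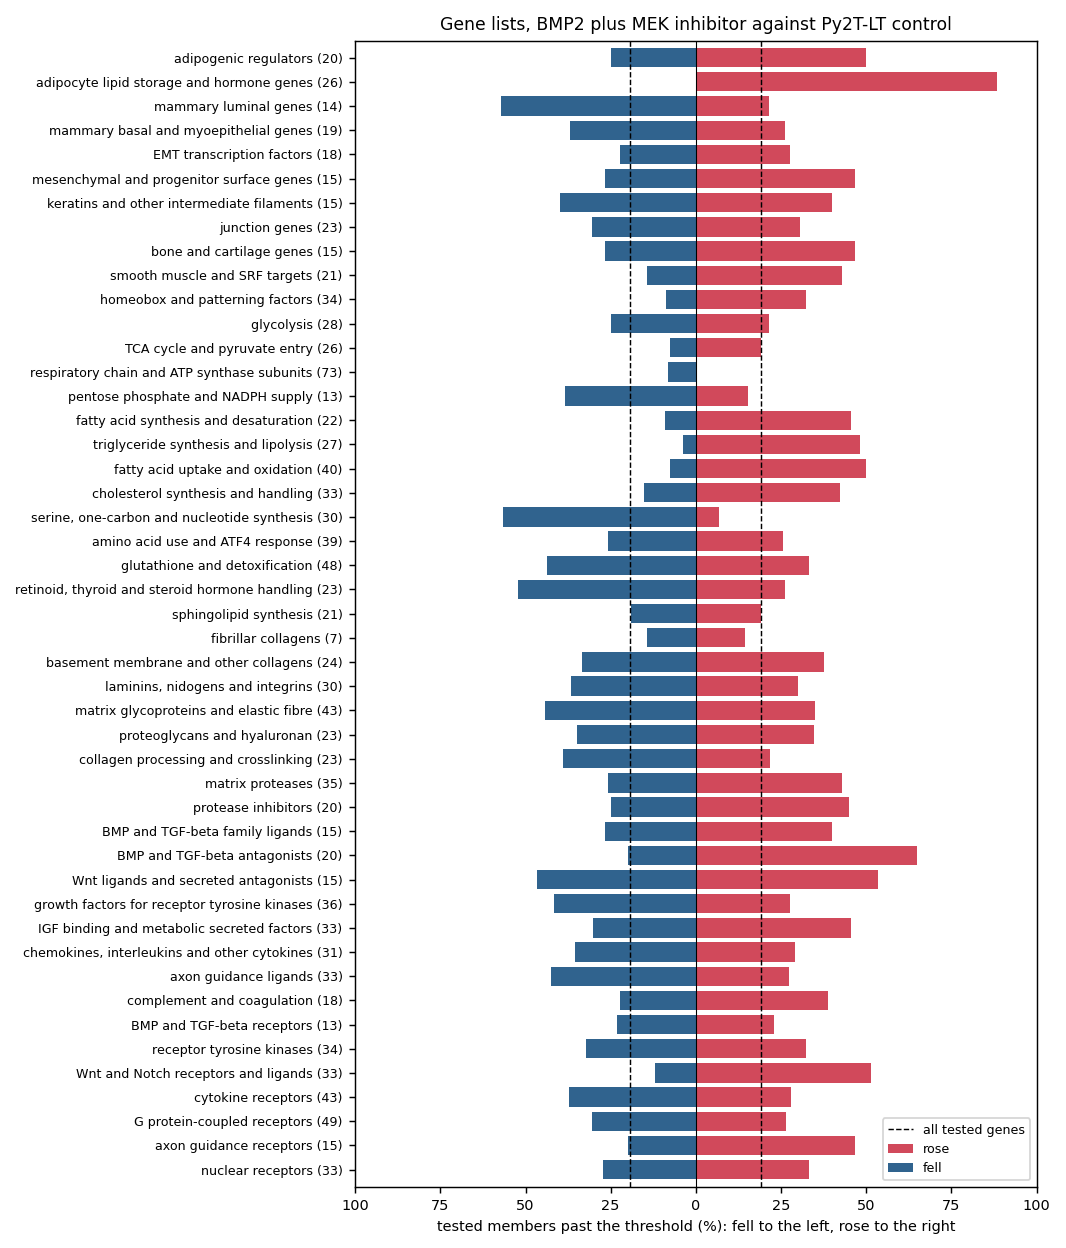
Share of the tested members of each gene list (number tested in brackets) that rose, to the right, or fell, to the left, in the combination against control. Dashed lines give the shares over all tested genes, 19.1% and 19.4%. Adipocyte genes (23 of 26 rose) stand far to the right, genes of serine, one-carbon and nucleotide synthesis (17 of 30 fell) to the left, and respiratory chain genes lie close to 0 on both sides.

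Genes of mature fat cells rose. Among 26 tested genes of lipid storage and fat-cell hormones, 23 were higher than control and none lower (median 1.86), and the inhibitor alone raised 20 of them and lowered none. In the combination 14 were higher and 1 was lower than with the inhibitor alone. Fabp4, a fatty acid carrier, stood at 2.1 and 4.06 CPM in controls, a mean of 103.9 CPM with the inhibitor, and 220 and 187 CPM in the combination. Adipoq, the gene of the hormone adiponectin, stood at 0.0616 and 0.5 CPM in controls and at 20.9 and 21.6 CPM in the combination, a ratio of 76.1 (counting interval 39.9 to 167). No difference was called from the mean of 24.5 CPM with the inhibitor alone (log2 difference -0.20). Slc2a4, the insulin-regulated glucose transporter of fat, reached only 0.402 and 0.756 CPM from 0 and 0.0625 CPM, and its call was lost without combination replicate 2 (edgeR adjusted p = 0.0562). The leptin gene Lep had 0 counts in the 4 libraries.

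Of 20 adipogenic regulators 10 rose and 5 fell (median 0.50), and 6 were higher and 8 lower than with the inhibitor alone, which itself raised 7 and lowered 1. Pparg, the master receptor of fat cells, rose from 3.14 and 3.94 to 25 and 25.1 CPM, 2.82 ± 0.14. Ebf2, a factor of brown and beige precursors, went from 0.0616 and 0 to 0.938 and 1.34 CPM. Nr1h3, the oxysterol receptor LXRα, rose by 3.28 ± 0.33 to 3.88 and 5.23 CPM. Klf15, a factor that promotes adipocyte gene expression, fell by 2.32 ± 0.37 from 2.28 and 2.44 CPM, and Ebf1 and Stat5a fell by 0.80 ± 0.07 and 0.79 ± 0.08. Srebf1, a driver of lipid synthesis, was at 476 and 538 CPM, above control (261 and 241 CPM) and below the inhibitor alone (mean 632 CPM).

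Mammary epithelial genes moved both ways. Of the luminal genes 78.6% were called and of the basal and myoepithelial genes 63.2%, beside 38.5% of all tested genes. Of 14 luminal genes 3 rose and 8 fell, and of 19 basal and myoepithelial genes 5 rose and 7 fell (4 without combination replicate 2). Dkk3, Vcan and Egfr were the largest falls of the basal list at 1 CPM or more. Of 15 keratins and other filament genes 6 rose and 6 fell, each by more than 2-fold. Krt14, a basal keratin, rose from 10.8 and 9.44 to 94.4 and 101 CPM, 3.27 ± 0.12. Krt15 went from 0 and 0.0625 to 9.51 and 8.66 CPM, a ratio of 292 (counting interval 52 to 11570), and Krt16 from 0.185 and 0.125 to 5.22 and 4.77 CPM. Krt8, a luminal keratin, fell from 228 and 210.0 to 41.2 and 44.9 CPM, -2.35 ± 0.09, and its partner Krt18 from 403 and 375 to 151 and 163 CPM, -1.31 ± 0.09. Krt5, another basal keratin, had 0 counts in all 4 libraries, and Trp63, the basal lineage factor, was at 7.15 and 5.81 against 9.31 and 6.86 CPM (edgeR adjusted p = 0.133; 0.0233 without combination replicate 2). Oxtr, the oxytocin receptor of myoepithelial cells, rose from 1.85 and 1.25 to 92.4 and 86.4 CPM, 5.84 ± 0.15, while the milk protein gene Csn3 fell from 2.46 and 3.31 to 0 and 0.0581 CPM. Cd24a, a surface protein of luminal cells, rose from 195 and 193 to 880 and 824 CPM, 2.14 ± 0.10, and the luminal factor Gata3, also a BMP target, by 1.03 ± 0.09.

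Factors and junction genes of the epithelial-mesenchymal axis also moved both ways. Of 18 transcription and splicing factors of this axis 5 rose and 4 fell (2 without combination replicate 1). Together 50% were called, beside 38.5% of all tested genes. The epithelial factor Ovol1 went from 0 counts to 2.81 and 2.91 CPM, at least 15.4-fold, and the epithelial splicing factor Esrp2 from 0.0616 and 0.125 to 0.938 and 2.09 CPM. On the mesenchymal side Prrx2 rose by 2.35 ± 0.19 and Snai1 by 1.86 ± 0.27, Twist2 fell by 1.40 ± 0.12, and Zeb1 and Zeb2 were not called (edgeR adjusted p = 0.11, 0.0477 without combination replicate 2, and 0.3). Of 23 junction genes 7 rose and 7 fell, and only 1 of the rises exceeded 2-fold. Cdh1, E-cadherin, stood at 36 and 31.7 CPM in controls, a mean of 11.8 CPM with the inhibitor and 18.4 and 15 CPM in the combination. It was thus below control (-1.02 ± 0.14) and above the inhibitor alone (log2 difference 0.50, called). The desmosome gene Pkp2 rose by 1.01 ± 0.08 and the claudin gene Cldn3 fell by 1.81 ± 0.38.

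**Figure D3:**
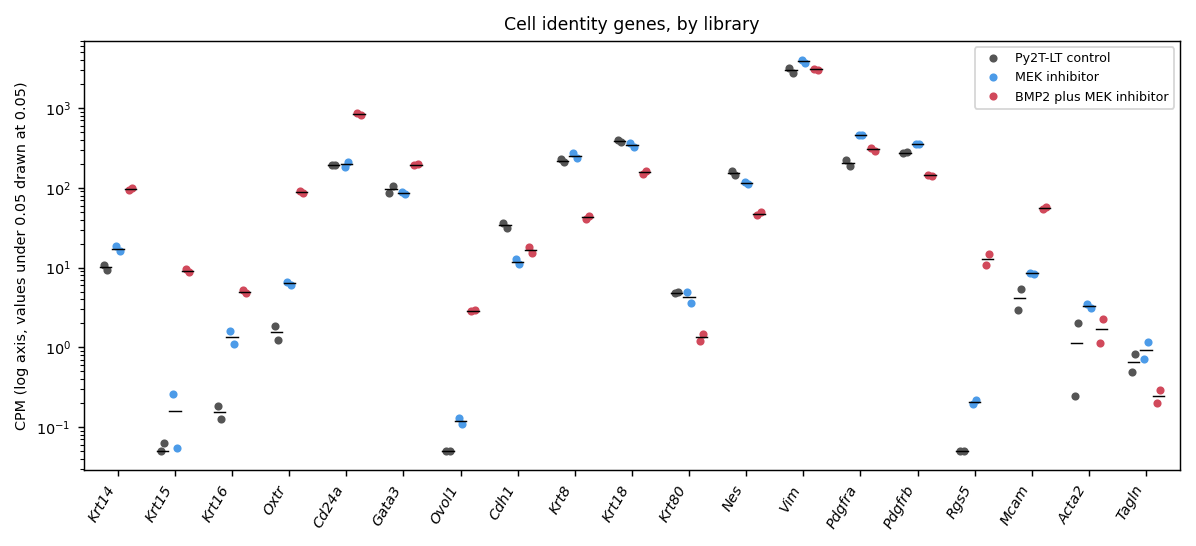
CPM (log axis, values under 0.05 drawn at 0.05) of cell identity genes in the 2 libraries of each Py2T-LT group, with a bar at each mean. Krt14, Krt15 and Oxtr are highest in the combination and Krt8 and Krt18 lowest, while the Vim values of control and combination overlap, at 2756 to 3199 CPM. Of the 19 tested basal and myoepithelial genes, most of them not drawn, 5 rose and 7 fell.

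Vim, the filament of mesenchymal cells, remained high at 3199 and 2756 CPM in controls and 3139 and 3045 CPM in the combination (0.05 ± 0.08; edgeR adjusted p = 0.643). Of 15 mesenchymal and progenitor surface genes 7 rose and 4 fell (2 without combination replicate 2, without control replicate 1 or with the compared groups alone). Mcam, a surface protein of pericytes, rose from 2.9 and 5.31 to 53.5 and 57.8 CPM, 3.76 ± 0.18, while Pdgfrb, a growth factor receptor of the same cells, fell from 274 and 281 to 147 and 139 CPM, -0.96 ± 0.08. Pdgfra, a marker of fat-cell precursors, was at 315 and 294 CPM, above control (221 and 191 CPM) and below the inhibitor alone (mean 465 CPM). Of 21 smooth muscle and SRF target genes 9 rose and 3 fell. The defining gene of smooth muscle, Acta2, was at 0.246 and 2 CPM against 1.14 and 2.27 CPM and was called only without control replicate 2 (log2 2.78, edgeR adjusted p = 0.000584). The integrin gene Itga8 rose by 2.07 ± 0.08, with no difference called from the inhibitor alone. The 3 falls were Csrp1 (-1.23), Cnn2 (-0.38) and Tagln, a contractile gene that was not called by DESeq2 (log2 -1.39). Cnn1, another contractile gene, was not called (log2 1.48).

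Bone and cartilage genes (15 tested) gave 7 rises and 4 falls (median 1.27). Runx2, the early osteoblast factor, rose from 15 and 22.9 to 48.2 and 50.6 CPM, 1.39 ± 0.14, and Alpl, the mineralising phosphatase, by 2.58 ± 0.13. Sp7, the osteoblast factor downstream of Runx2, had at most 0.067 CPM in any of the 4 libraries. Col10a1, a cartilage collagen, went from 0.123 and 0.25 to 7.83 and 6.75 CPM, a ratio of 39 (counting interval 17.6 to 107). Spp1, osteopontin, among the most abundant transcripts in these cells, fell from 12290 and 11250 to 6796 and 5640 CPM, -0.92 ± 0.09. Of 34 homeobox and patterning factors 11 rose, 3 fell and 20 were not called (41.2% called, beside 38.5% of all tested genes). Gata4, a factor of endoderm and heart, rose from 0.616 and 0.5 to 4.49 and 7.09 CPM, and Dlx1 by 2.67 ± 0.18.

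Markers of other cell types (blood, vessel, nerve and muscle) were low. Of 26 such genes 7 had enough reads to be tested, 2 rose and 1 fell (1 rose without combination replicate 2 or with a stricter filter, and 2 fell without control replicate 2). Their summed level was 10.6 to 13.9 CPM in controls and 18.2 to 21.9 CPM in the combination. The blood cell gene Cd79a and the glial factor Sox10 had 0 counts in the 4 libraries, and the endothelial genes Cdh5, Kdr and Vwf stayed at or below 0.312 CPM. Tubb3, a neuronal tubulin, rose from 2.83 and 2.13 to 10.2 and 14.3 CPM. Of 10 nuclear and non-polyadenylated RNAs 2 rose and none fell (1 without combination replicate 2, control replicate 1 or a count filter). Malat1 rose by 0.50 ± 0.10 (19080 and 17280 against 28940 and 22510 CPM) and Neat1 by 0.51 ± 0.08, and Rpph1 was not called. Of 17 stress and RNA quality genes 3 rose and 5 fell (3 by DESeq2 or without control replicate 1 or either combination library). The part of these RNAs in the other results was not tested.

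Genes of fat handling gave more rises than falls. Of 27 triglyceride synthesis and lipolysis genes 13 rose and 1 fell (none without control replicate 2 or with the compared groups alone), and of 40 genes of fatty acid uptake and oxidation 20 rose and 3 fell. Mgll, which releases the last fatty acid of a monoglyceride, rose from 1.29 and 1.38 to 29 and 27.6 CPM, 4.398 ± 0.15. G0s2, an inhibitor of the main lipase, rose by 3.64 ± 0.25, and that lipase, Pnpla2, by 1.00 ± 0.12. Dgat2, which adds the third fatty acid, rose by 2.14 ± 0.17, whereas Gpam, which adds the first, was not called (27.1 and 28.6 against 24.4 and 28.4 CPM). Ppara, the receptor that drives fatty acid oxidation, went from 0 counts to 3.62 and 2.62 CPM, at least 16.7-fold, and Cd36, a fatty acid importer, from 0.555 and 1.31 to 105 and 93.7 CPM. Slc27a1, another importer, went the other way, from 62.5 and 58.6 to 25.6 and 29.8 CPM, -1.13 ± 0.11.

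Genes of fatty acid synthesis moved unevenly. Of 22 genes 10 rose and 2 fell (none without combination replicate 2, and 1 without combination replicate 1 or control replicate 1, by DESeq2, without a filter or with the compared groups alone). Scd1, which desaturates stearate, rose from 438 and 467 to 1608 and 1340 CPM, 1.70 ± 0.09, and Fasn, fatty acid synthase, from 368 and 406 to 596 and 640 CPM, 0.67 ± 0.08. Acaca, the carboxylase that acts just before fatty acid synthase, was not called (64.9 and 73.9 against 61.4 and 63 CPM). Acacb, its mitochondrial relative, rose from 0 and 0.188 to 1.2 and 1.05 CPM, a ratio of 12 (counting interval 3.8 to 61.1). Acly, which supplies cytosolic acetyl-CoA, fell by 0.27 ± 0.08, a call lost without control replicate 1 or combination replicate 2 (edgeR adjusted p = 0.128 and 0.0546). Of 33 cholesterol genes 14 rose and 5 fell (3 without control replicate 1, none without combination replicate 2, 3 with the compared groups alone), with Cyp51 at 0.79 ± 0.08 and Hmgcs1 at 0.74 ± 0.09. Lrp1, a lipoprotein receptor, was at 710 and 1769 CPM in controls, the higher value in replicate 2, against 409 and 459 CPM, -1.51 ± 0.45. It lost its call without either combination library (edgeR adjusted p = 0.15 and 0.19) or with the compared groups alone (0.231), and stood at -0.71 without control replicate 2 (0.00689). Of 21 sphingolipid genes 4 rose and 4 fell (1 fell without combination replicate 2, 2 by DESeq2, and 2 rose without combination replicate 1), 38.1% called beside 38.5% of all tested genes. Sptlc3 was the only one to rise by over 2-fold.

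Few respiratory chain genes were called. Of 73 respiratory chain and ATP synthase subunits 6 fell and none rose by edgeR's test, 8.2% called beside 38.5% of all tested genes. None fell without combination replicate 1 or control replicate 1, and 1 subunit rose without control replicate 1, with RLE size factors, with a stricter filter or with a replicate block. Of 26 TCA cycle genes 5 rose and 2 fell (26.9% called). Of 28 glycolysis genes 6 rose and 7 fell (4 without combination replicate 1 or control replicate 1), 46.4% called. Pdk4, which blocks entry of pyruvate into the TCA cycle, went from 0.185 and 0.0625 to 3.62 and 4.59 CPM, a ratio of 33.4 (counting interval 12.7 to 124). Pcx, which carboxylates pyruvate, rose from 15 and 13.5 to 79.8 and 82.4 CPM, 2.51 ± 0.13. The lactate and pyruvate carrier Slc16a1 fell from 261 and 253 to 132 and 127 CPM, -0.99 ± 0.08, and the glucose transporter Slc2a1 by 0.60 ± 0.10. Ldha, lactate dehydrogenase, was not called (edgeR adjusted p = 0.247). Of 13 pentose phosphate and NADPH genes 2 rose and 5 fell. Idh1, the cytosolic NADPH-forming isocitrate dehydrogenase, rose from 178 and 175 to 978 and 859 CPM, 2.38 ± 0.08, and was also 1.83 above the inhibitor alone, whereas its mitochondrial relative Idh2 fell by 0.67 ± 0.08.

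Genes of serine, one-carbon and nucleotide synthesis fell with the cell cycle genes: 17 of 30 fell and 2 rose, and 25 were lower than with the inhibitor alone. The list shares Tk1, Rrm2 and other members with the cell cycle list. Tk1, thymidine kinase, fell from 19.6 and 16.9 to 5.02 and 3.55 CPM, -2.10 ± 0.18. Psat1, of serine synthesis, fell from 251 and 235 to 133 and 143 CPM, -0.81 ± 0.08. Among 39 amino acid and ATF4 response genes 10 rose (6 without combination replicate 2) and 10 fell (6 without control replicate 1). Ass1, of arginine synthesis, rose from 36.8 and 34.1 to 129 and 142 CPM, 1.94 ± 0.09, and the leucine carrier Slc7a5 fell by 1.09 ± 0.09.

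Of 48 glutathione and detoxification genes 16 rose and 21 fell, 77.1% called beside 38.5% of all tested genes. Mgst1, a membrane glutathione transferase, rose from 16.1 and 17.3 to 117 and 106 CPM, 2.74 ± 0.09, and the metallothionein gene Mt1 fell by 0.84 ± 0.10. Of 23 genes handling retinoid, thyroid and steroid hormones 6 rose and 12 fell (78.3% called), 7 of the falls by over 2-fold. Cyp26b1, which degrades retinoic acid, rose from 4.68 and 5.87 to 33.5 and 35.9 CPM, 2.72 ± 0.15. Crabp2, which carries retinoic acid to its receptors, fell from 79.7 and 74.4 to 13.1 and 13.3 CPM, -2.55 ± 0.10, beside the fall of the receptor Rarb. The aldehyde dehydrogenase genes Aldh1a7 and Aldh1a1, of the same list, rose by 3.07 and 0.72.

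Matrix genes moved in both directions. Of 7 tested fibrillar collagens 1 rose (none without combination replicate 2) and 1 fell, 28.6% called beside 38.5% of all tested genes. The summed level of all 11 in the table was 185.2 and 202 CPM in controls against 174.5 and 192 CPM. Most of that sum was Col5a1, picked out after its values were seen, at 171.5 and 184.4 against 160 and 176 CPM and not called. Col1a1, a chain of type I collagen, was at 1.23 and 1.63 against 2.34 and 2.21 CPM and was not called. Of 24 basement membrane and other collagens 9 rose and 8 fell, each of the rises by over 2-fold, and the summed level of the whole list went from 2598 and 2623 to 5267 and 4999 CPM. Chains of collagen VI, picked out after their values were seen, were among the rises. Col6a1 rose from 318.5 and 277 to 1854 and 1805 CPM, 2.62 ± 0.11, and Col6a2 from 22.1 and 28 to 260.1 and 263 CPM, 3.39 ± 0.11. Col4a1, of basement membranes, was not called (255 and 251 against 265 and 299.5 CPM). Col7a1, of the anchoring fibrils under epithelia, fell by 1.87 ± 0.16.

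Of 43 matrix glycoprotein and elastic fibre genes 15 rose and 19 fell, 79.1% called. Ltbp2, a latent TGF-β binding protein of elastic fibres, rose from 37.2 and 59.2 to 524 and 595 CPM, 3.54 ± 0.20, or 3.91 without control replicate 2. Smoc1 and Smoc2, related secreted modulators of growth factor signals, rose by 4.80 ± 0.22 and 4.26 ± 0.14, Smoc2 from 4.87 and 5.12 to 85.2 and 107 CPM. Tnc, tenascin C, rose from 266 and 283 to 679 and 761 CPM, 1.39 ± 0.08. Tgfbi, a TGF-β-induced adhesion protein, fell from 176 and 146 to 16.7 and 14.9 CPM, -3.35 ± 0.12, and Spon1, F-spondin, from 4.68 and 5.75 to 0.201 and 0.0581 CPM. Fn1, fibronectin, was at 4406 and 7696 CPM in controls and 6524 and 5953 CPM in the combination (0.04 ± 0.27; edgeR adjusted p = 0.92). The direction for Fn1 depended on which control was kept: it was higher without control replicate 2 (log2 0.50, edgeR adjusted p = 0.00198) and lower without control replicate 1 (-0.30, 0.0485).

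Proteoglycan and hyaluronan genes also moved both ways. Has2, the main hyaluronan synthase, rose from 16.6 and 13.2 to 248 and 235 CPM, 4.02 ± 0.11 (edgeR adjusted p = 1.98e-16). Dcn, decorin, a small proteoglycan that binds collagen, fell from 43.3 and 45.6 to 1.88 and 1.92 CPM, -4.54 ± 0.18. Ogn, osteoglycin, of the same family, fell from 460.5 and 469.6 to 45.1 and 30.1 CPM, -3.63 ± 0.19, and the large proteoglycan Vcan, versican, from 69.2 and 85.4 to 14.5 and 8.49 CPM, -2.76 ± 0.21. Fmod, fibromodulin, of the decorin family, went from 0 counts to 3.68 and 3.14 CPM, at least 18.3-fold. Over the 23 tested genes of the list 8 rose and 8 fell.

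Of 30 laminins, nidogens and integrins 9 rose and 11 fell. Lamb3, a laminin chain of skin-type basement membrane, rose from 1.6 and 1.06 to 17.9 and 18 CPM, 3.74 ± 0.25, and the integrin chain Itgb3 from 6.9 and 5.87 to 47.2 and 43.7 CPM, 2.83 ± 0.14. Nid2, nidogen 2, fell from 11.1 and 9.81 to 1 and 1.34 CPM, -3.14 ± 0.21. Hspg2, perlecan, was at 101 and 415.5 CPM in controls, the higher value in replicate 2, against 44 and 54.2 CPM. Its log2 fold change was -2.39, or -1.04 without control replicate 2 (edgeR adjusted p = 0.0467). The call was lost without either combination library (edgeR adjusted p = 0.153 and 0.192) or with the compared groups alone (0.234). Of 23 collagen processing and crosslinking genes 5 rose (3 without combination replicate 1 or control replicate 2) and 9 fell. Tgm2, transglutaminase 2, fell from 591 and 539 to 145 and 140.4 CPM, -1.98 ± 0.08, and Pcolce, which speeds procollagen cleavage, from 241 and 188 to 60.8 and 56.6 CPM, -1.87 ± 0.11. The crosslinker Lox was not called, at 2.03 and 3.31 against 2.68 and 1.16 CPM, and fell only without combination replicate 1 (-1.21, edgeR adjusted p = 0.0492).

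Of 35 matrix proteases 15 rose and 9 fell (68.6% called). Of 20 protease inhibitors 9 rose and 5 fell (70% called), beside 38.5% of all tested genes. Plau, urokinase, was not called (67.9 and 64.8 against 62.8 and 60.2 CPM). Mmp11, a stromal metalloproteinase, rose from 47.8 and 49.6 to 248 and 281 CPM, 2.44 ± 0.08. Mmp2, gelatinase A, fell from 5.24 and 4.06 to 0.335 and 0.465 CPM, -3.50 ± 0.31. Prss23, a serine protease picked out after its values were seen, rose from 804 and 796 to 3061 and 3071 CPM, 1.94 ± 0.07. Among inhibitors the cathepsin inhibitor Cst3 fell from 685 and 633 to 278 and 311 CPM, -1.16 ± 0.08, and Timp1 by 0.87 ± 0.08.

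**Figure D4:**
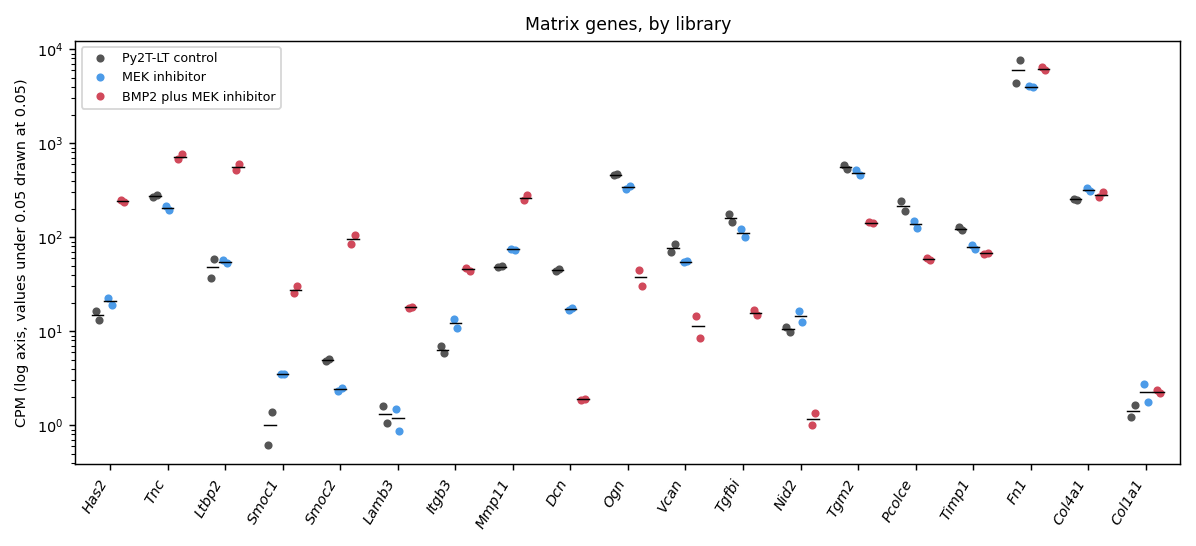
CPM (log axis) of matrix genes in the 2 libraries of each Py2T-LT group, with a bar at each mean. Has2, Ltbp2 and Smoc2 are highest in the combination and Dcn, Ogn, Tgfbi and Nid2 lowest, the control values of Fn1 stand at 4406 and 7696 CPM, and Col1a1 lies at 1.23 to 2.34 CPM in control and combination.

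Antagonists of the BMP and TGF-β family rose in number: of 20 tested 13 rose and 4 fell (85% called, beside 38.5% of all tested genes). Of 15 ligands 6 rose and 4 fell. The antagonist list shares at least Grem1 with the BMP and SMAD1/5 target list, so the counts of these lists are not independent. Noggin, Nog, which binds BMPs, rose from 1.73 and 3.5 to 26.3 and 36.3 CPM, 3.58 ± 0.26, the activin antagonist follistatin, Fst, by 1.86 ± 0.12, and gremlin, Grem1, from 0.0616 and 0 to 1.34 and 1.63 CPM. The inhibitory SMAD gene Smad6 rose from 16.5 and 12.6 to 122 and 156 CPM, 3.26 ± 0.14. Of the ligands, Bmp4 rose by 1.19 ± 0.09, the activin chains Inhba and Inhbb by 1.00 ± 0.11 and 1.70 ± 0.10, Tgfb2 by 1.95 ± 0.17 and Tgfb3 by 0.81 ± 0.08 to 508 and 499.9 CPM. Tgfb1 fell from 5.48 and 6.81 to 1.94 and 2.27 CPM, -1.54 ± 0.22, and the cells' own Bmp2 from 2.28 and 3.5 to 0.469 and 1.05 CPM, -1.89 ± 0.41. Of 13 receptors of the family 3 rose (5 without control replicate 2) and 3 fell, 46.2% called beside 38.5% of all tested genes. The type I receptor Tgfbr1 rose from 176 and 194 to 374.5 and 345 CPM, 0.96 ± 0.08, while its partners Tgfbr2 and Tgfbr3 fell by 0.66 ± 0.07 and 2.02 ± 0.09. Bmpr2, at 168 and 274 against 261 and 233 CPM, was called only without control replicate 2 (log2 0.56, edgeR adjusted p = 0.000172).

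All 15 tested Wnt ligands and secreted antagonists were called, 8 up and 7 down, beside 38.5% of all tested genes. The list has 28 members in the count table, and the rest, Wnt10b among them, had too few reads to be tested. Wnt4 rose from 0.555 and 0.625 to 38.4 and 42.2 CPM, 6.08 ± 0.22, and was not called with the inhibitor alone (mean 0.363 CPM). Wnt10a, a Wnt ligand known to hold back fat-cell formation, fell from 39.2 and 41.3 to 1.67 and 2.44 CPM, -4.27 ± 0.17, and was at a mean of 3.12 CPM with the inhibitor alone. The antagonists moved both ways, with Wif1 up (0.0616 and 0 to 2.34 and 2.5 CPM) and Dkk2 lower (-2.48 ± 0.22). Of 33 Wnt and Notch receptors, ligands and targets 17 rose and 4 fell (2 without control replicate 1 or either combination library). Rnf43, which removes Wnt receptors from the surface, rose by 3.03 ± 0.23, the receptor Fzd1 by 1.01 ± 0.08 and the Notch ligand Jag1 by 1.22 ± 0.10. Hey1, a Notch and BMP target, rose from 2.28 and 2.5 to 44.5 and 46.3 CPM, 4.24 ± 0.16, and the Wnt target Axin2 fell from 8.19 and 9.37 to 2.34 and 2.5 CPM, -1.85 ± 0.20.

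Of 36 growth factors that act on receptor tyrosine kinases 10 rose and 15 fell (69.4% called). Of 34 such receptors 11 rose and 11 fell (64.7% called), beside 38.5% of all tested genes. Igf2, insulin-like growth factor 2, rose from 1.36 and 1.56 to 47 and 35.9 CPM, 4.82 ± 0.31, with a mean of 16.9 CPM with the inhibitor alone, and Igf1 and Hgf by 1.00 ± 0.10 and 1.23 ± 0.19. Fgf1 fell from 4.81 and 5.69 to 0.335 and 0.523 CPM, -3.57 ± 0.35. The fibroblast growth factor receptors moved both ways: Fgfr2 rose from 11 and 9.5 to 64.2 and 66.6 CPM, 2.68 ± 0.12, and Fgfr3 from 0.246 and 0.125 to 6.03 and 5.35 CPM, a ratio of 30.4 (counting interval 13.7 to 84). Fgfr1 fell from 538 and 582 to 284 and 315 CPM, -0.90 ± 0.10, with no difference called from the inhibitor alone (mean 293 CPM). Egfr and the collagen receptor Ddr2 fell by 0.98 ± 0.09 and 2.21 ± 0.13. Insr, the insulin receptor, and Met were not called against control, although Insr fell without control replicate 1 (-0.27, edgeR adjusted p = 0.0364).

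Of 33 IGF binding and metabolic secreted factors 15 rose and 10 fell (6 without combination replicate 1 or control replicate 1). Chil1, a chitinase-like glycoprotein, rose from 2.46 and 2.31 to 84.2 and 84.8 CPM, 5.14 ± 0.13 (edgeR adjusted p = 3.57e-17). C1qtnf1, a relative of adiponectin, fell from 55.9 and 67.9 to 12.8 and 11.6 CPM, -2.34 ± 0.12. Of 31 chemokines and cytokines 9 rose and 11 fell. Cxcl12, a chemokine of stromal cells, rose from 205 and 209 to 876 and 872 CPM, 2.08 ± 0.07, and Il6 from 0 and 0.0625 to 2.01 and 1.86 CPM, a ratio of 62.2 (counting interval 10.8 to 2496). Cxcl16 fell from 41.8 and 38.7 to 4.96 and 3.37 CPM, -3.28 ± 0.16, and the interleukin antagonist Il1rn (-3.85 ± 0.34) and the monocyte chemokine Ccl2 (-2.62 ± 0.28) fell with it. Of 43 cytokine receptors 12 rose and 16 fell, 65.1% called beside 38.5% of all tested genes. Lifr, the receptor chain for leukaemia inhibitory factor, rose from 27.5 and 30.1 to 162.8 and 163 CPM, 2.50 ± 0.10, while its ligand gene Lif was not called (edgeR adjusted p = 0.671) and Il6ra fell by 1.03 ± 0.09. Il1rl1, a receptor of the interleukin family, fell from 29.8 and 23.4 to 2.01 and 2.04 CPM, -3.71 ± 0.19.

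Of 33 axon guidance ligands 9 rose and 14 fell (69.7% called). Of 15 receptors 7 rose and 3 fell (66.7% called), beside 38.5% of all tested genes. Ntn1, netrin 1, fell from 301 and 305.7 to 22 and 17.4 CPM, -3.95 ± 0.11, while one of its receptors, Unc5b, rose from 67.9 and 70.2 to 921 and 1048 CPM, 3.83 ± 0.10. With the inhibitor alone these stood at means of 178 and 92.2 CPM. Draxin, another netrin-binding ligand, went from 0.0616 and 0.125 to 8.5 and 10 CPM, a ratio of 99.98 (counting interval 33.9 to 488), and Sema7a, a semaphorin anchored in the membrane, fell from 94.7 and 87.4 to 4.42 and 5.18 CPM, -4.24 ± 0.14. Of 49 G protein-coupled receptors 13 rose and 15 fell (57.1% called). Adgrb1, an adhesion receptor for dying cells, went from 0.123 and 0.312 to 13.4 and 15.2 CPM, a ratio of 66.2. Adrb3, the adrenergic receptor of mature fat cells, had 0 counts in the 4 libraries. Of 33 nuclear receptors 11 rose and 9 fell, with Ppara, Nr1h3 and Pparg the largest rises and Rarb, the orphan receptor Nr2f1 (-2.20 ± 0.11) and Nr4a3 (-1.96 ± 0.36) the largest falls.

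**Figure D5:**
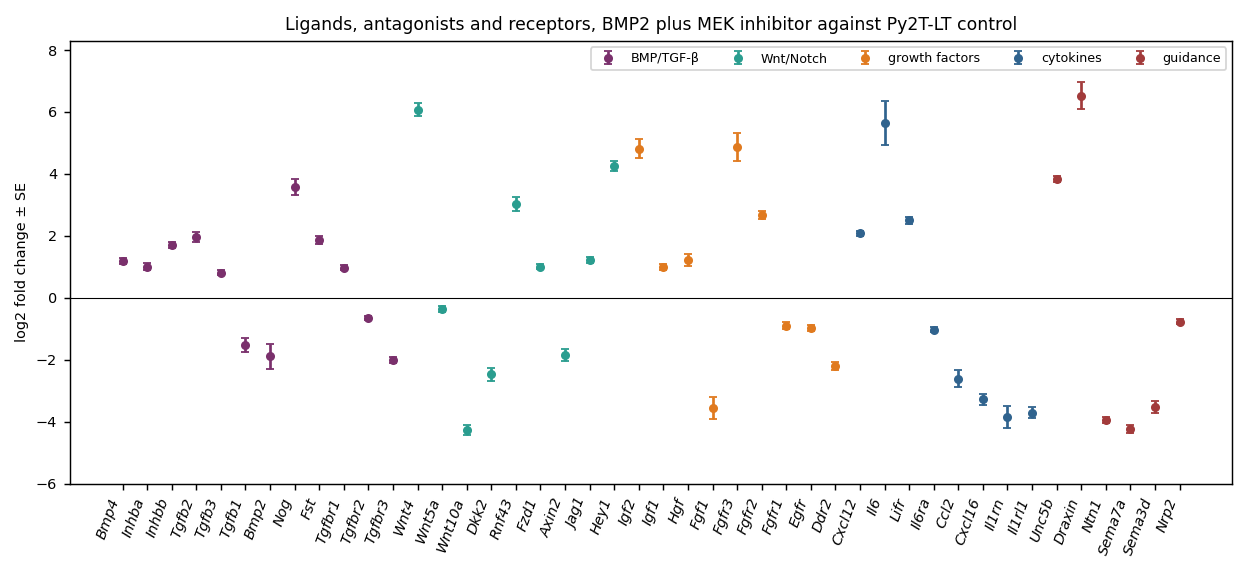
Log2 fold change of the combination against control, with its standard error, for ligands, antagonists and receptors grouped by pathway. Each pathway holds members that rose and members that fell, such as Unc5b at 3.83 and Ntn1 at -3.95.

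Complement and coagulation genes (18 tested) gave 7 rises and 4 falls. C3 rose from 16.1 and 18.3 to 51.6 and 46.8 CPM, 1.51 ± 0.13, with no difference called from the inhibitor alone (mean 60.5 CPM). F5, coagulation factor V, fell from 14.7 and 20.6 to 0.737 and 0.698 CPM, -4.61 ± 0.27. Thbd, thrombomodulin, fell from 179 and 177 to 41 and 45.1 CPM, -2.05 ± 0.08, and F3, tissue factor, rose by 1.47 ± 0.13, from 6.96 and 5.75 to 16.9 and 18.3 CPM. The control and combination libraries did not overlap for any of these 4 genes. All of them had already passed the test, so this is no further evidence.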

How the data were processed

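RNA of 2 independent experiments per group was sequenced with a stranded total RNA kit, per the labels' protocols. The same text mentions poly-A RNA, and which selection was used is uncertain. The authors deposited whole-number read counts per gene. Reads were aligned with STAR to mm10, per the submitters' processing notes. For STAR's version and for how genes were counted (tool, strand, annotation) nothing is stated: not given in the sources used here. Near-identical or overlapping genes may share reads. Of 18103 NCBI gene identifiers, 18057 were named with the RefSeq annotation of GRCm38.p6 and 3 with GENCODE M21. The 43 unmatched identifiers held 0.763% of counts and are not named, and 0 sample columns were left unused.

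Counts were fitted in R 4.3.3 with edgeR 4.0.16: filterByExpr over the 5 groups (13149 genes), TMM scaling, and a robust quasi-likelihood model with 1 mean per group over all 10 libraries (5 residual degrees of freedom, common biological coefficient of variation 7.07%). P-values were Benjamini-Hochberg adjusted at 0.05. They are judged against the spread between 2 experiments a group, pooled over all 5 groups and both cell lines and drawn towards that of other genes. The SE is the log2 fold change divided by the square root of F. The fit was also run on simulated counts, whose values are not given here. Replicates differed by more than counting noise (chi-square per gene 5.52 to 17.3), so none were merged. A fold against a group at 0 counts is a bound against 3 counts per library. Where a group held 1 to 9 counts, a ratio with an exact 95% conditional interval is given, which reflects counting error alone, as the reads carry no molecular identifiers.

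Named genes are the 12 largest rises and falls of at least 5 CPM with libraries that do not overlap, the 3 largest each way in each of 53 gene lists at 1 CPM or more, and anchor genes listed with them. Others, marked as such or named because they were not called (E2f1, E2f2) or lay at or near 0 (Lep and markers of other cell types), were picked after their values were seen. Members and lists were chosen with earlier results of these data known. Lists hold 1663 distinct genes, 1558 of them in the table, and are described by counts and medians. Promoters (10358 of the tested genes) came from RefSeq, and 12 motifs were searched on both strands, overlaps allowed: the TATA box as TATAAA, the CCAAT box as CCAAT, E2F as TTTGGCGC or as TTTCCCGC, CHR as TTTGAA, the GC-rich SMAD element as GGCGCC, the palindromic SMAD element as GTCTAGAC, AP-1 as TGANTCA, CRE as TGACGTCA, TEAD as CATTCC, the antioxidant response element as TGACNNNGC, and the PPAR DR1 element and the ISRE in their consensus forms. Alternatives were RLE size factors, no filter or a stricter one, only the compared groups, DESeq2 1.42.0, a replicate block and each library left out. Cell line identity was not checked beyond the markers reported.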

Additional observations from a re-analysis of the deposited data

How the results depend on the processing

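With 2 libraries a group, precision rests on 5 pooled degrees of freedom, and low genes rest on few counts. The 5064 calls ran from 3924 to 4385 with 1 of the 4 libraries left out (1889 to 2103 rises and 2035 to 2326 falls, the last with fewer samples), and stood at 4305 by DESeq2, 4674 with only the compared groups, 4993 with a stricter filter and 5346 without a filter. With RLE size factors rises came to outnumber falls, 2533 to 2517. The 4908 calls against the inhibitor alone ran from 3837 to 4005 with a library left out. Of 365 named genes tested, 334 were called, 292 of them under every alternative that gave a value for the gene, and 42 lost the call in at least 1. Only Fn1 reversed, to -0.30 without control replicate 1 (edgeR adjusted p = 0.0485), and stood at 0.50 without control replicate 2 (0.00198); the cause was not tested. Of 106 list counts 24 moved by over 1.5 times under at least 1 alternative. Replicate numbers are shared between groups but did not pair the libraries: replicate differences correlated at -0.017 between control and combination, and at -0.165 to 0.179 over all pairs of groups. With the replicate block 5148 genes were called, 2577 up and 2571 down, and against the inhibitor alone 5024.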

Other observations

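Several of the genes that changed by more than 2-fold lie in runs of at least 3 neighbouring tested genes that moved the same way, picked out after their values were seen. On chromosome 1 the interleukin receptor genes Il1rl2, Il1rl1, Il18r1 and Il18rap all fell. Il18rap, a chain of the interleukin 18 receptor, went from 21.3 and 19.1 to 2.21 and 2.09 CPM, a log2 fold change of -3.23 ± 0.17, and Il18r1, its partner, from 1.54 and 1.5 to 0.603 and 0.523 CPM. On chromosome 14 the ribonuclease genes Ang, Rnase4, Rnase1 and Ang2 fell, Rnase4 from 243 and 276 to 21.3 and 25 CPM (-3.48 ± 0.13) and Rnase1 from 31.2 and 35.2 to 1.47 and 1.86 CPM (-4.30 ± 0.15). On chromosome 11 the keratin genes Krt13, Krt15, Krt14 and Krt16 rose, Krt13 from 0 counts to 1 and 0.988 CPM. On chromosome 7 the kallikrein-related protease genes Klk10, Klk8, Klk7 and Klk6 fell, Klk10 from 28.7 and 23.6 to 6.09 and 3.66 CPM (-2.44 ± 0.21). In each gene named here the control and combination libraries did not overlap. The runs were built from called genes that changed by over 2-fold, so this is no further support.

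Other runs hold close copies, so the division of reads among members is uncertain. The Ugt1a genes on chromosome 1, which add glucuronic acid to bile pigment and drugs and share exons, rose together, with Ugt1a1 at 12.1 and 10.4 against 73.5 and 65.7 CPM (2.62 ± 0.13) and at a mean of 12.1 CPM with the inhibitor alone. The acute-phase genes Saa1, Saa2 and Saa3 on chromosome 7 and Orm1 on chromosome 4 also rose, from at most 0.5 CPM in any control library to 3.68 and 4.13 CPM for Saa1, 3.82 and 4.24 CPM for Saa3 and 2.48 and 2.44 CPM for Orm1. How far such neighbours share control was not tested.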
